A study of Mus musculus with 6 samples.

Results

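Androgens act on the granulosa cells (GCs) that surround the oocyte, and GCs also express genes best known from neurons. Described here are 9 such genes in mouse GCs treated with dihydrotestosterone (DHT), the potent androgen that is not converted to estrogen. Of these, 6 (*Ntf3*, *Reln*, *Slc6a4*, *Syt13*, *Cntnap2* and *Kcnc4*) were chosen because their normalized counts were lower in DHT-treated GCs than in control GCs of these same libraries, so their difference is given as a description and carries no test. The other 3 (*Bdnf*, *Ntrk2* and *Ngfr*) were added as relatives of *Ntf3*. The expression table held 8 of the 9 among its 16300 genes, and *Ngfr* was not analysed here. All 8 had a mean of at least 10 normalized counts, as did 16292 genes in total.

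Neurotrophins are secreted growth factors that are cleaved from pro-forms and act through Trk receptor kinases and the p75 receptor, with sortilin-family receptors handling the pro-forms. In neurons they govern survival and synapse formation, and in the ovary neurotrophins and their receptors have been described in oocytes, GCs and theca cells during follicle formation and growth. Reelin is an extracellular matrix glycoprotein that positions migrating neurons through the receptors ApoER2 and VLDLR, and theca cells are a known ovarian source of it.

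The GCs came from the estrus-stage ovaries of wild-type C57BL/6J mice aged 8 to 9 weeks and were grown in primary culture. Every library, of both groups, was from GCs cultured with serum for 48 h, serum starved for 4 h and then kept for 24 h in medium alone (control, n = 3 libraries) or in medium with 25 nM DHT (n = 3 libraries), with the GCs of 5 mice pooled for each library. A library is thus a pool rather than one animal, and the spread between libraries measures differences between pools. The normalized counts had been divided by a size factor for each library, and the whole reads behind them came to 36111177 to 41928585 per library.

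Because bulk RNA was measured, fewer cells that express a gene and less RNA of that gene per cell cannot be told apart. Over 12 of 13 listed GC markers the summed level was 5630 to 5928 CPM (reads scaled to a common library total) in control. It was 5018 to 5442 CPM in DHT-treated GCs. Most of this sum came from *Gja1*, *Inha* and *Inhba*, at 71378, 54181 and 40288 normalized counts in control. *Fshr* and *Amh* were low, at 150 and 130. Of the 12 GC markers, 4 passed the test as lower (*Foxl2*, *Inha*, *Esr2* and *Kitl*) and 1 as higher (*Hsd17b1*), and *Cyp19a1* was not analysed here. The summed level of neuron markers was higher in all DHT libraries than in all controls. Over 18 of 22 listed neuron markers the sum was 601 to 661 CPM in control and 727 to 769 CPM in DHT-treated GCs, 0 of the 18 passed the test as lower and 3 as higher, and most of the sum came from *Uchl1*, *Map2* and *Tubb3*. The sum over 6 of 10 glia and Schwann cell markers was 280 to 296 CPM against 327 to 338 CPM, with *Sox10* not analysed here. Most of that sum came from *Mbp* (6295 and 7875 normalized counts) and *Pmp22* (3896 and 4229). *S100b* had 28.2 and 41.5 and *Gfap* 24.6 and 18.9. Oocyte markers, 7 of 8, summed to 9.23 to 21.9 CPM in control and 2.74 to 15.6 CPM in DHT-treated GCs. Theca and stroma markers, 10 of 12, summed to 208 to 268 CPM and 290 to 333 CPM, a shift carried by *Acta2* (5399 and 9012 normalized counts), while the list's median log2 fold change was -0.15. Surface epithelium, endothelial and immune markers overlapped between the groups, at 108 to 129 and 86.6 to 119 CPM, 6.82 to 8.00 and 5.81 to 7.78 CPM, and 13 to 15.4 and 10.4 to 16.6 CPM. The part of these shifts in the results below was not tested.

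*Ntf3* encodes neurotrophin-3, the preferred ligand of TrkC, and lies on the minus strand of chromosome 6 at 126101412 to 126166910 (GRCm38, GENCODE M21). Its normalized counts were 341, 303 and 297 in control replicates 1 to 3 and 172, 127 and 82.7 in DHT replicates 1 to 3. The groups did not overlap, since the lowest control library stood 1.73-fold above the highest DHT library. The mean was 314 ± 23.9 (SD, n = 3) in control and 127 ± 44.8 in DHT-treated GCs, a ratio of 2.47. The fitted difference on the log2 scale was -1.36, with 0.23 as standard error. The controls lay close together, with a coefficient of variation of 7.63% where sampling of reads alone would give 5.50%. The DHT libraries spread more widely, at 35.2% against 9.03%.

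*Bdnf* encodes brain-derived neurotrophic factor, the ligand of TrkB, and lies on the plus strand of chromosome 2 at 109674700 to 109727007. Control libraries held 888, 1241 and 1854 normalized counts and DHT libraries 1841, 1192 and 1159. The highest control and the highest DHT library were nearly equal, and the groups overlapped over most of their range. The means were 1327 ± 489 and 1397 ± 384, and the log2 difference, 0.11, had a standard error of 0.25, so it was smaller than its error. The coefficient of variation of 36.8% in control and 27.5% in DHT-treated GCs far exceeded the 2.66% and 2.73% of read sampling. Exons of an antisense gene, *Gm45346*, cover 14.4% of the exonic bases of *Bdnf*, and the library kit named for these samples does not mark strand, so reads of the shared stretch cannot be told apart.

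*Ntrk2* encodes TrkB, the receptor of BDNF and neurotrophin-4, and lies on the plus strand of chromosome 13 at 58806569 to 59133970. Its normalized counts were 19.8, 28.8 and 25.0 in control and 25.4, 17.5 and 21.8 in DHT-treated GCs. These values rest on 16 to 31 reads per library and overlapped between the groups. On the log2 scale the difference came to -0.18, with 0.26 as standard error. Its coefficient of variation, 18.5% in control and 18.6% in DHT-treated GCs, was close to the 19.6% and 22% of read sampling, so a difference of this size was not detectable at this depth.

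*Reln* encodes reelin and spans 21884454 to 22344702 on the minus strand of chromosome 5. In normalized counts it stood at 428, 432 and 269 in control and 143, 205 and 148 in DHT-treated GCs. Control replicate 3 stood below the other two controls but 1.31-fold above the highest DHT library, so the groups did not overlap. The mean was 376 ± 93.3 in control and 165 ± 34.5 in DHT-treated GCs, a ratio of 2.28, and the fitted difference was -1.17 on the log2 scale (standard error 0.20). An antisense gene, *Gm10475*, shares 1.04% of the exonic bases of *Reln*.

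*Slc6a4* encodes the serotonin transporter, which returns serotonin to the cell that released it, and lies on the plus strand of chromosome 11 at 76998603 to 77032340. Per library it had normalized counts of 297, 243 and 147 in control and 52.8, 69.8 and 52.2 in DHT-treated GCs. Controls were spread widely, again with replicate 3 lowest, whereas the DHT libraries lay close together and all below the controls. The mean was 229 ± 75.7 in control and 58.3 ± 9.98 in DHT-treated GCs, which left 25.5% of the control level. Its log2 fold change of -1.91 (standard error 0.25) was the 15th lowest of the 16292 genes.

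*Syt13* encodes synaptotagmin 13, a membrane trafficking protein of the synaptotagmin family, and lies on the plus strand of chromosome 2 at 92915098 to 92956058. Its normalized counts were 279, 138 and 296 in control and 99.8, 86.2 and 69.6 in DHT-treated GCs. Control replicate 2 held less than the other two controls and stood 1.39-fold above the highest DHT library. The mean was 238 ± 86.3 in control and 85.2 ± 15.1 in DHT-treated GCs, with a fitted difference of -1.41 on the log2 scale (standard error 0.27).

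*Cntnap2* encodes CASPR2, a neurexin-like membrane protein that gathers potassium channels beside the nodes of Ranvier. It is among the longest mouse genes and spans 2244857 bases on the plus strand of chromosome 6, at 45059357 to 47304213. Normalized counts came to 1301, 1057 and 972 in control and 515, 491 and 428 in DHT-treated GCs. It had the narrowest relative spread of the 6 in DHT-treated GCs, at 9.41%, and every control stood at least 1.89-fold above every DHT library. The mean was 1110 ± 171 in control and 478 ± 45.0 in DHT-treated GCs, with a fitted difference of -1.21 on the log2 scale (standard error 0.11).

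*Kcnc4* encodes Kv3.4, a fast voltage-gated potassium channel, and lies on the minus strand of chromosome 3 at 107438303 to 107459552. Its normalized counts were 32.7, 59.5 and 33.4 in control and 8.81, 9.82 and 10.9 in DHT-treated GCs. These rest on 33, 64 and 36 reads and on 9, 9 and 10 reads, the lowest of the 6 genes, and the lowest control was 3-fold above the highest DHT library. The mean was 41.8 ± 15.3 in control and 9.84 ± 1.04 in DHT-treated GCs, with a fitted difference of -1.93 on the log2 scale (standard error 0.30). The coefficient of variation of the DHT libraries, 10.6%, was below the 32.7% that read sampling alone would give, so their closeness does not measure the precision of that mean.

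**Figure D1:**
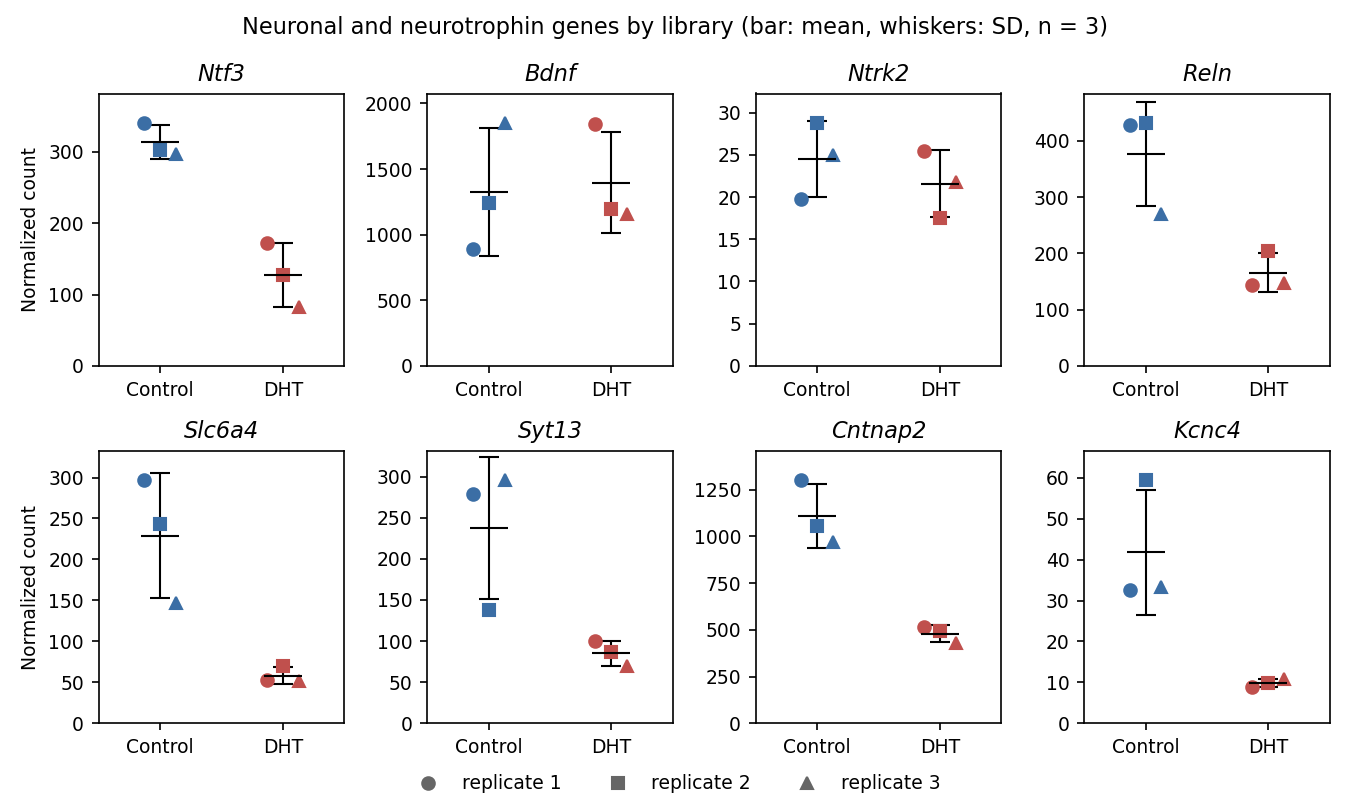
Normalized count (vertical axes, each starting at 0) of the 8 genes in the 3 control and 3 DHT libraries, with a marker shape for each replicate number, a bar at the mean and whiskers for the SD. In 6 panels all DHT points lie below all control points, while *Bdnf* and *Ntrk2* overlap.

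Of the 8 genes, 6 met both thresholds of the series (adjusted p of at most 0.05 and a change of more than 1 on the log2 scale) in the lower direction, and 3 of them did so without limma's intensity trend. Among all tested genes 65, or 0.399%, did so, and 148, or 0.908%, met them in the higher direction. All DHT libraries lay below all control libraries in the same 6 genes and in 14.7% of all tested genes. The 6 were picked from this contrast, so nothing is read from these counts. *Cntnap2*, at -1.21, and *Reln*, at -1.17 on the log2 scale, were the closest to the threshold on its inner side, and *Ntrk2*, at -0.18, and *Bdnf*, at 0.11, were the nearest outside it. The median log2 fold change of all tested genes was -0.01, and those at the 10th and 90th percentile were -0.31 and 0.33.

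**Figure D2:**
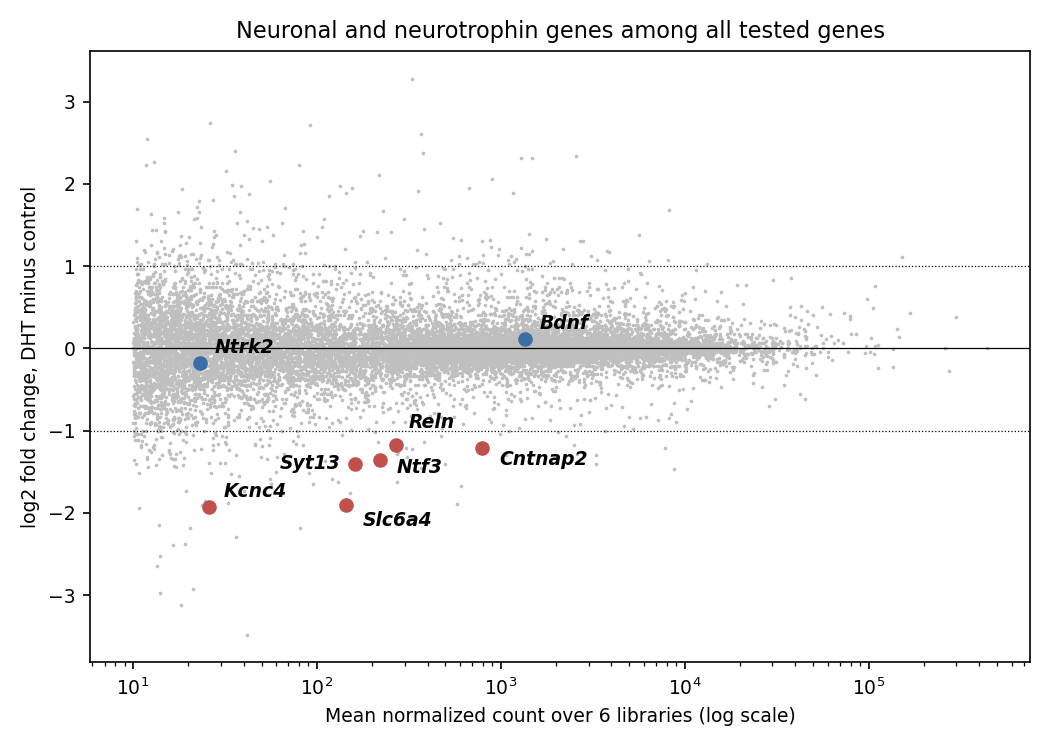
Log2 fold change, DHT minus control, against the mean normalized count over 6 libraries (log scale) for all 16292 tested genes (grey), with the 6 genes chosen for a lower level in red and *Bdnf* and *Ntrk2* in blue, and dotted lines at -1 and 1. The red points run from -1.93 (*Kcnc4*) to -1.17 (*Reln*) and the blue points lie near 0.

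The libraries did not order the 6 genes alike. Control replicate 3 was the lowest control for 4 of them (*Ntf3*, *Reln*, *Slc6a4* and *Cntnap2*) but the highest for *Syt13*. DHT replicate 3 was the lowest DHT library for 4 (*Ntf3*, *Slc6a4*, *Syt13* and *Cntnap2*) and the highest for *Kcnc4*. No library was lowest or highest in its group for all 6.

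Levels can be compared between genes only per length, here as CPM per kilobase of exon. In control GCs *Bdnf* was highest on this scale at 5.54 ± 1.99 (SD, n = 3), followed by *Ntf3* at 4.76 ± 0.408, and their libraries overlapped. *Cntnap2* came next at 2.82 ± 0.462. *Syt13* at 1.64 ± 0.595 and *Slc6a4* at 1.32 ± 0.447 overlapped each other, as did *Reln* at 0.413 ± 0.105 and *Kcnc4* at 0.297 ± 0.108. *Ntrk2* was far below all of these, at 0.0331 ± 0.00596, which put it at percentile 0.369 of genes. The *Ntf3* level exceeded that of the TrkB gene by a wide margin in either group, although TrkB is not the preferred receptor of neurotrophin-3. *Ntrk2* has 19292 exonic bases but a longest transcript of 8744 bases, so its level and percentile depend on the length used.

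In DHT-treated GCs *Bdnf* stayed at 5.73 ± 1.62 on the same scale, and *Ntf3* stood at 1.89 ± 0.679, so the 2 neurotrophins, whose libraries overlapped in control, were apart. By this level *Ntf3* stood at percentile 52.6 of genes in control and 36.6 in DHT-treated GCs, *Slc6a4* at 31.3 and 15.2, and *Kcnc4* at 13.9 and 2.16. With the longest transcript in place of all exonic bases, *Slc6a4* stood at 2.13 in control and passed *Syt13*, and *Reln* stood at 0.838, so the order of these neighbours depends on the length used.

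**Figure D3:**
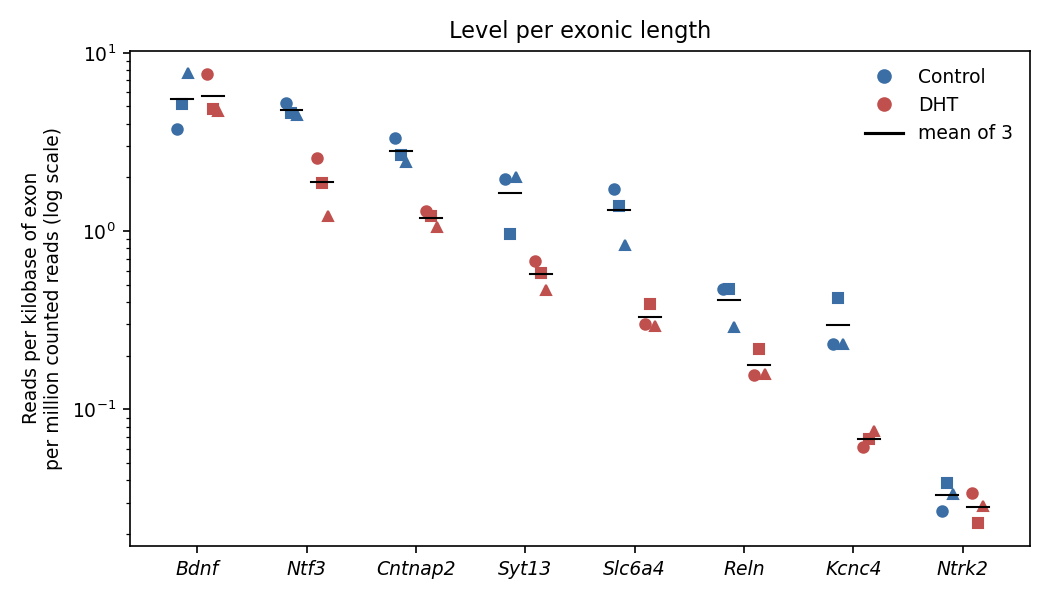
Level of the 8 genes as CPM per kilobase of exon (log scale), ordered by the control mean, with blue points for control and red points for DHT libraries and a line at each mean of 3. *Bdnf* and *Ntf3* are the highest in control and *Ntrk2* is the lowest in both groups.

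Stretches of 250 bases before the annotated starts were read from RefSeq (GRCm38.p6) to show what lies upstream of the genes with lower counts, since androgen receptor binds a known DNA element. The table held 16 such starts over 8 genes (*Ngfr* and all genes above but *Syt13*), 7 of them from *Bdnf*. The *Reln*, *Slc6a4* and *Kcnc4* stretches are printed because each of these genes has 1 start and they differ sharply in CG content, with CG pairs in capitals and each sequence on the strand of its gene. The *Reln* stretch is chr5:22344706-22344955 (minus strand), the *Slc6a4* stretch is chr11:76998347-76998596 (plus strand) and the *Kcnc4* stretch is chr3:107458899-107459148 (minus strand).
Reln: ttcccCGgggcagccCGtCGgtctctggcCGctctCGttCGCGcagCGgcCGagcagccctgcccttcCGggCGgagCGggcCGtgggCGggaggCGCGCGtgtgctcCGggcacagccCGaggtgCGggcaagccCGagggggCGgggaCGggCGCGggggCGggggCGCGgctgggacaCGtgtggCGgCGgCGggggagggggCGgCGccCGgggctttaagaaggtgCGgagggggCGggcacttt
Slc6a4: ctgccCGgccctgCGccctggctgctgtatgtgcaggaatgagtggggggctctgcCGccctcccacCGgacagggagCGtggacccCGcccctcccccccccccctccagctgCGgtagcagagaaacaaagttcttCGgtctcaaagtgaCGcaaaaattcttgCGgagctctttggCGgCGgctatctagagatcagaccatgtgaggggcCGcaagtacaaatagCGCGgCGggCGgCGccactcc
Kcnc4: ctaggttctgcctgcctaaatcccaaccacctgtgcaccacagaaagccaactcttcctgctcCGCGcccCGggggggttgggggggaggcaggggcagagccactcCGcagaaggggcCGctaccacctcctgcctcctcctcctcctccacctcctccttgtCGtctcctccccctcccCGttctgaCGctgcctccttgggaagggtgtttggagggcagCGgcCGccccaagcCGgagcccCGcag

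The *Reln* stretch held 37 CG pairs and 80.0% G and C, at percentile 98.8 of 32851 RefSeq promoter stretches, whose median was 6 CG pairs and 52.4%. *Slc6a4* had 18 CG pairs and 64.8%, and *Kcnc4* had 12 and 68.0%. The starts of *Ntf3* had 54.0% and 62.0%.

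The full androgen response element, searched on both strands as AGAACA and TGTTCT with any 3 bases between them, was in none of the 16 stretches and in 0.00913% of all stretches. A single arm of it, AGAACA or TGTTCT, was in 16.1% of all stretches and in 3 of the 16, all 3 of *Bdnf* and thus none of the 5 genes with lower counts that were searched. The cAMP response element TGACGTCA (1.55% of all stretches) and the steroidogenic factor 1 site CAAGGTCA (1.33%) were in none. The 3 *Bdnf* matches are shown because they were the only ones, with the arm in capitals. They lie on the plus strand at chr2:109674453-109674478, chr2:109676782-109676807 and chr2:109709194-109709219, with the match 237, 240 and 179 bases before the start.
Bdnf start 1: gttgttccctAGAACAagtcactccc
Bdnf start 2: tgtaccatttAGAACAagaggatgga
Bdnf start 6: ttagtagttcAGAACAcaatcagtat
A match is a run of letters only, and its lack says nothing of sites elsewhere.

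The other neurotrophins and their receptors were given by lists drawn up with results of these data known, and their tests come from limma's moderated test over all 16292 genes with Benjamini-Hochberg adjustment. *Ntf5*, which encodes neurotrophin-4, another TrkB ligand, rose from 235 ± 5.30 to 308 ± 20.7 normalized counts (log2 fold change 0.38, limma adjusted p = 0.023). These neurotrophin genes therefore stood at different places, with *Ntf3* lower, *Bdnf* overlapping between the groups and *Ntf5* higher, the last with a call lost under 4 of 16 alternatives (limma adjusted p from 0.020 to 0.10). *Ntrk3*, which encodes TrkC, the main receptor of neurotrophin-3, had 48.2 ± 16.3 and 30.6 ± 5.70 normalized counts (limma adjusted p = 0.25).

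Of the 6 receptor genes tested beside *Ntrk2*, 3 fell and 1 rose, and all 4 were of the sortilin family, whose proteins bind pro-neurotrophins or sort neurotrophins and Trk receptors inside the cell. *Sorl1* fell from 526 ± 24.5 to 299 ± 26.7 normalized counts (log2 fold change -0.82, limma adjusted p = 0.00056). *Sorcs1* fell from 135 ± 14.8 to 86.2 ± 10.4 (-0.64, limma adjusted p = 0.026, up to 0.10 and lost under 6 of 16 alternatives) and *Sort1*, sortilin itself, from 5174 ± 59.3 to 4470 ± 55.8 (-0.21, limma adjusted p = 0.0042). *Sorcs2*, a partner of p75 in proBDNF signalling, went the other way, from 66.8 ± 13.8 to 124 ± 10.3 (0.90, limma adjusted p = 0.010).

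Of 7 genes for enzymes of pro-neurotrophin processing, 2 fell and none rose. *Pcsk2*, a proprotein convertase of secretory granules, fell from 70.3 ± 13 to 30.5 ± 7.58 normalized counts (log2 fold change -1.19, limma adjusted p = 0.011). *Plat*, tissue plasminogen activator, fell from 757 ± 96.3 to 545 ± 19.8 (-0.46, limma adjusted p = 0.011). *Furin*, which cleaves pro-neurotrophins along the general secretory route, had a log2 fold change of 0.03 (limma adjusted p = 0.67).

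Of 13 adaptors that carry neurotrophin signals, 3 rose and none fell. These were *Frs2* (log2 fold change 0.31, limma adjusted p = 0.0062), *Sh2b2* (0.51, 0.0059) and *Bex3*, a p75-binding protein (0.35, 0.00090). In the related GDNF family *Gdnf* rose from 1051 ± 69.6 to 1841 ± 168 normalized counts (0.81, limma adjusted p = 0.00028), alone of 6 tested.

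Of 9 reelin pathway genes tested beside *Reln*, 1 fell and 2 rose. *Lrp8*, which encodes the reelin receptor ApoER2, rose from 2351 ± 184 to 3183 ± 202 normalized counts (log2 fold change 0.44, limma adjusted p = 0.0033). *Vldlr*, the other receptor, was 2961 ± 222 and 2583 ± 108 (-0.20, limma adjusted p = 0.069). *Fyn*, a kinase that phosphorylates the reelin adaptor Dab1, rose by 0.24 on the log2 scale (limma adjusted p = 0.0091), and *Crkl*, a downstream adaptor, fell from 2038 ± 124 to 1775 ± 36.7 (limma adjusted p = 0.041). *Dab1* was not analysed here.

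**Figure D4:**
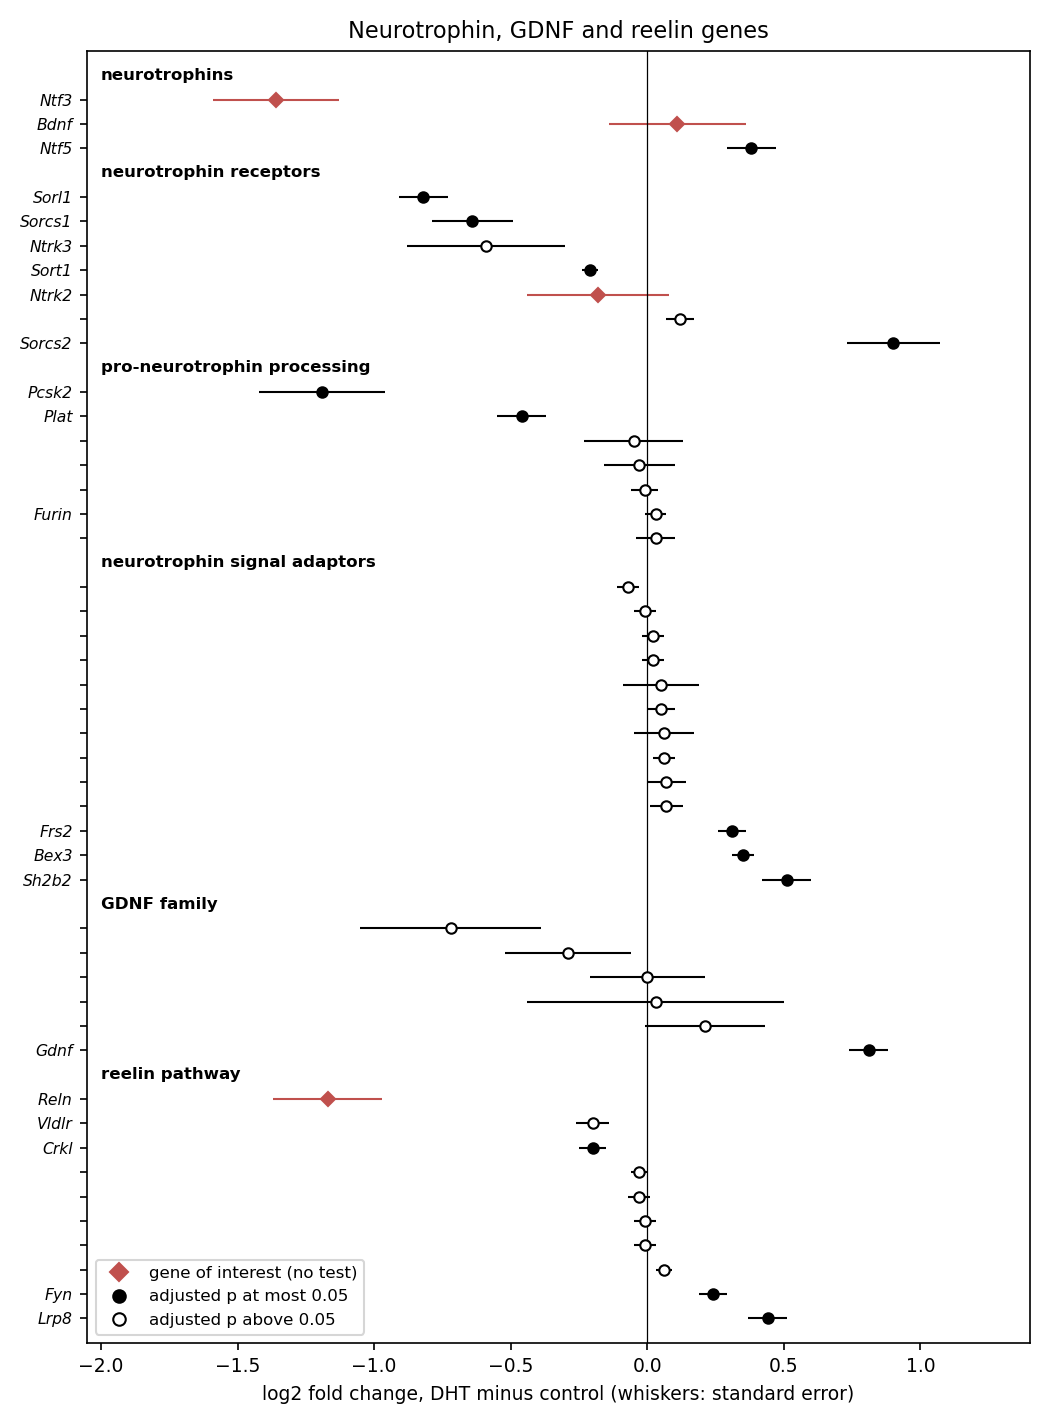
Log2 fold change, DHT minus control (horizontal axis), with its standard error as whiskers, for neurotrophin, GDNF family and reelin pathway genes, with red diamonds for the genes described without a test, filled circles for an adjusted p of at most 0.05 and open circles for the rest, and genes named in the text are labelled. *Ntf3* and *Reln* lie left of all other genes drawn in their lists, and *Lrp8*, *Gdnf* and *Sorcs2* lie right of 0.

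Around *Slc6a4*, 12 other genes of serotonin and monoamine handling were tested, of which 1 fell and 1 rose. *Tph1*, the rate-limiting enzyme of serotonin synthesis outside the brain, rose from 1435 ± 382 to 2288 ± 395 normalized counts (log2 fold change 0.69, limma adjusted p = 0.040). *Maoa*, which degrades serotonin, fell from 27038 ± 2846 to 20137 ± 1110 (-0.42, limma adjusted p = 0.0074). *Slc18a2*, the vesicular monoamine transporter, was 357 ± 53.5 and 429 ± 66.8 (limma adjusted p = 0.27). The genes for the dopamine and noradrenaline transporters were not analysed here.

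Of 14 synaptotagmin and synaptotagmin-like genes tested beside *Syt13*, 1 fell and 2 rose. *Syt7*, a calcium sensor of exocytosis, rose from 648 ± 70.1 to 1024 ± 46.3 normalized counts (log2 fold change 0.66, limma adjusted p = 0.0011). Of the synaptotagmin-like genes, *Sytl3* rose from 10.5 ± 1.32 to 35 ± 0.213 (1.66, limma adjusted p = 0.0026) and *Sytl1* fell from 113 ± 13.5 to 67.3 ± 10.4 (-0.74, limma adjusted p = 0.023).

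Of 8 contactin, CNTNAP, neurexin and neuroligin genes tested beside *Cntnap2*, only *Epb41l3* passed. It encodes protein 4.1B, which binds CASPR2 beneath the membrane, and it fell from 146 ± 12.4 to 90.5 ± 19.5 normalized counts (log2 fold change -0.70, limma adjusted p = 0.028, up to 0.11 and lost under 6 of 16 alternatives). *Cntnap1* was 275 ± 29.3 and 226 ± 27.3 (limma adjusted p = 0.18) and *Cntnap5a* was 600 ± 25.9 and 701 ± 33.4 (limma adjusted p = 0.054).

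Of 27 voltage-gated potassium channel genes tested beside *Kcnc4*, 5 rose and 1 fell. Its Kv3 relative *Kcnc2* rose slightly from 1018 ± 53.9 to 1169 ± 30.5 normalized counts (log2 fold change 0.20, limma adjusted p = 0.047). Among the genes that passed the test, the largest rises were in *Kcng2*, a silent modifier subunit, from 9.77 ± 0.751 to 34.7 ± 4.88 (1.72, limma adjusted p = 0.0026), and *Kcnd2*, which encodes Kv4.2, from 1300 ± 90.8 to 2166 ± 102 (0.74, limma adjusted p = 0.00015). *Kcnab1*, an accessory subunit, fell from 512 ± 38.4 to 410 ± 31.7 (-0.32, limma adjusted p = 0.046).

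Of 43 semaphorin, netrin, slit and receptor genes, which guide growing axons, 7 fell and 4 rose. The 3 largest falls were in the netrin-1 gene *Ntn1* and the netrin-1 receptor genes *Unc5b* and *Dcc*. *Ntn1* fell from 77.6 ± 25.2 to 29.1 ± 4.36 normalized counts (log2 fold change -1.35, limma adjusted p = 0.011). *Unc5b* fell from 3444 ± 97.1 to 1527 ± 118 (-1.18, limma adjusted p = 3e-05). *Dcc* fell from 41.4 ± 5.04 to 21.2 ± 5.62 (-0.96, limma adjusted p = 0.043, up to 0.13 and lost under 8 of 15 alternatives). Other netrin-1 receptor genes of the list did not pass. They were *Neo1* (-0.13, limma adjusted p = 0.17), *Unc5a* (-0.80, limma adjusted p = 0.20), *Unc5c* (0.56, limma adjusted p = 0.30) and *Unc5d* (0.03, limma adjusted p = 0.96). *Slit1*, a repellent ligand of Robo receptors, rose from 151 ± 25.3 to 445 ± 44.1 (1.57, limma adjusted p = 0.00022). *Ntng2* (0.70, limma adjusted p = 0.041) and *Sema3g* (0.65, limma adjusted p = 0.017) also rose.

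Across the neuronal lists as a whole, without the 8 genes, 17 of 173 tested genes fell (9.83%) and 21 rose (12.1%) at an adjusted p of at most 0.05, beside 4.66% and 6.52% of all tested genes. Their median log2 fold change was 0.02, beside -0.01 for all tested genes. Only 3 of the 173 (*Pcsk2*, *Ntn1* and *Unc5b*) also met the fold threshold as lower, and 3 (*Sytl3*, *Kcng2* and *Slit1*) as higher. The 38 genes past the test (17 lower) became 22 without DHT replicate 3, 24 without DHT replicate 2, 19 (6 lower) without the intensity trend and 25 (10 lower) under a replicate block, although the numbers were not found to pair the libraries. *Tph1*, *Crkl*, *Kcnab1*, *Kcnc2*, *Dcc* and *Ntng2* lost the call under 7 to 9 of the 15 or 16 alternatives that could be run for each, with adjusted p up to 0.17. *Sorcs1* and *Epb41l3* lost it under 6 of 16, *Sytl1* and *Sema3g* under 5 and *Ntf5* under 4. *Pcsk2*, *Plat*, *Sorcs2*, *Frs2*, *Fyn*, *Maoa* and *Ntn1* lost it under 1.

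**Figure D5:**
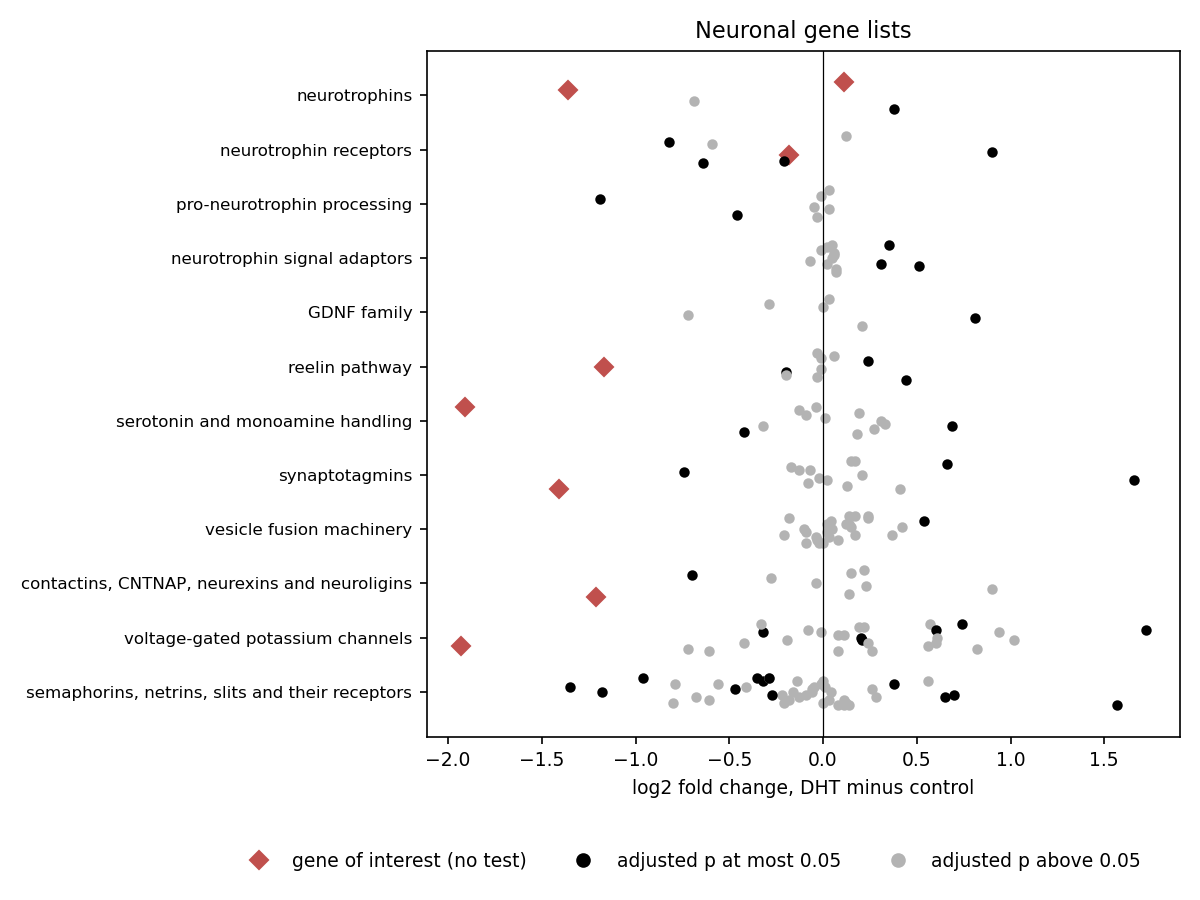
Log2 fold change, DHT minus control (horizontal axis), of each tested gene in 12 neuronal gene lists (rows), with red diamonds for the genes described without a test, black points for an adjusted p of at most 0.05 and grey points for the rest. *Slc6a4*, *Syt13*, *Cntnap2* and *Kcnc4* lie left of every other gene of their lists, while the black points of 6 lists fall on both sides of 0.

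Among 12699 other genes with a mean of at least 50 normalized counts, those most like each of the 6 over the 6 libraries (2 each, and 1 for *Syt13*) were found by Pearson's r, given as a description over points that share the treatment groups. For *Slc6a4* they were *Plau*, the urokinase gene (r = 0.998, log2 fold change -1.47), and *Fam83h* (0.998, -0.27). For *Ntf3* they were *Fut8* (0.998) and *Cdr2l* (0.993), for *Reln* *Rad17* (0.995) and *Cyp39a1* (0.993), and for *Syt13* *Clstn1*, which encodes a synaptic adhesion protein (0.994). For *Cntnap2* they were *Mrpl54* (0.999) and *Tcaf1* (0.998), and for *Kcnc4* *Map4* (0.997) and *Myrf* (0.996). Apart from *Plau*, the log2 fold changes of these genes lay between -0.35 and -0.09, so they shared the pattern over libraries but not its size.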

How the data were processed

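Libraries were made with the NEBNext Ultra RNA kit, which does not mark strand. The submitters' processing notes name Trimmomatic 0.36, STAR 2.5.2b and Subread 1.5.2 with GRCm38, and per the study's methods these trimmed the reads, aligned them and counted unique hits per gene. The authors deposited 1 normalized count per gene and library (a signal: read counts divided by DESeq2 size factors), beside columns of log2 fold change and p-values of their own comparison, which were not used, and a shorter table of selected genes, also not used. Libraries were grouped by their labelled treatment, although the labels' extraction text speaks of whole ovary. The genes and lists were chosen with earlier results of these data known.

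Genes with a mean of at least 10 were tested on log2(normalized count + 1) by limma 3.58.1 (R 4.3.3) with an intensity trend, two-sided, with Benjamini-Hochberg adjustment, after the code was tested on simulated data. Fold changes are on this scale, which understates those of low genes. A call needed an adjusted p no higher than 0.05 together with a log2 change of more than 1, and gene lists were counted at the adjusted p alone. Dividing each value by what 1 read is worth in its library gave whole reads, within 0.01, for 100% of values, and edgeR 4.0.16 and DESeq2 1.42.0 were run on these as alternatives. CPM and reads per kilobase were computed from the same reads, with exonic lengths from GENCODE M21, where 16265 genes matched by identifier. Other alternatives changed the pseudocount, filter, scaling and trend, added a replicate block or left out 1 library. Beside the 9 genes, the text names list genes past both thresholds, up to 3 per list and direction with the largest change past the adjusted p, close relatives of the 9 genes, and the 2 genes most like each of the 6. A few genes that this rule names are not reported here. The labels do not say whether the pools were separate cultures, so p-values measure the spread between these libraries.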

Additional observations from a re-analysis of the deposited data

How the results depend on the processing

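All log2 fold changes of the 6 genes with lower counts stayed negative under each alternative run. They ranged from -1.60 to -1.08 for *Ntf3*, -1.39 to -1.05 for *Reln*, -2.20 to -1.69 for *Slc6a4*, -1.76 to -1.21 for *Syt13*, -1.30 to -1.09 for *Cntnap2* and -2.09 to -1.44 for *Kcnc4*, the last at a pseudocount of 8. *Bdnf* ranged from -0.15 to 0.38 and *Ntrk2* from -0.32 to -0.04.

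With 213 genes called in all (65 lower, 148 higher), a mean of at least 50 gave 131 (42 lower, 89 higher) and left *Kcnc4* untested, which the filter itself sets. Without the intensity trend 40 genes were called lower, 3 of the 6 genes were called (not *Ntf3*, *Reln* or *Syt13*), and 19 genes of the neuronal lists passed (6 lower, 13 higher), and the cause was not tested. DESeq2 called 190 genes and edgeR 214, with all 6 among them in both. Leaving out each library in turn gave 138 to 286 genes in all, 41 to 91 lower and 95 to 195 higher, 5 to 6 of the 6 genes (5 without DHT replicate 3, which lost *Syt13*), and 22 to 43 genes of the neuronal lists, 9 to 17 lower and 13 to 26 higher.

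Both groups carry replicate numbers 1 to 3, but same-numbered libraries did not deviate together (r = 0.00583, 0.0666 and -0.238), so the numbers were taken as names. Under a replicate block the calls came to 157 (46 lower, 111 higher), the 6 genes included, and 25 genes of the neuronal lists passed (10 lower, 15 higher). Control replicate 1 correlated best with DHT replicate 3. Depth limits *Kcnc4* and *Ntrk2*, which rest on at most 64 reads in any library.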
